A study of Rattus norvegicus with 28 samples.

Results

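The genes described here form a named set of 10: Hif1a, which encodes the oxygen-regulated subunit of the transcription factor HIF-1, and 9 genes that carry glucose from uptake to pyruvate and decide its further use (Slc2a1, Hk1, Hk2, Pfkp, Pgk1, Eno1, Pkm, Ldha and Pdk1). The set is defined by gene names, without a threshold on any measured value. It was chosen with earlier results of these data known, so counts of its genes beside shares of all genes are a description. Of the 10, 9 were measured by a probe set that matches 1 gene, among 14217 genes in all. The single probe set for Pkm also matched another gene, and Pkm was left out. RNA of endothelial cells from male rat hearts had been hybridised to 24 Affymetrix arrays, 3 for each of 8 groups. These comprised normal, untransplanted hearts of the DA (Dark Agouti) strain, normal hearts of the Lewis strain, allografts (a DA heart in a Lewis recipient) and isografts (a Lewis heart in a Lewis recipient), with each graft type taken 2, 3 and 4 days after surgery. Grafts had been joined to vessels of the recipient's neck with cuffs. Minced hearts had been depleted of cells with the leukocyte protein CD45 and then enriched, with magnetic beads, for cells with the endothelial protein CD31. Another 4 arrays held leukocytes taken from allografts (1 array for day 2, 2 for day 3, 1 for day 4). Arrays of a group are described as biological replicates, but the sources used here do not say how animals map to arrays, so p-values here reflect the spread between arrays alone. Every group mean below has n = 3, levels are log2 signals, and differences are log2 differences of group means with their standard error (SE).

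Low oxygen spares the HIF-1 alpha protein from degradation, and HIF-1 then raises transcription of glucose transporters and of most enzymes of glycolysis. Endothelial cells draw much of their ATP from glycolysis even when oxygen is at hand, and transplanted vessels pass through a time without blood flow followed by reperfusion. HIF-1 alpha is controlled largely at the level of the protein, which an RNA array does not see.

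The preparations carried endothelial transcripts throughout. Pecam1, which encodes CD31, ranged from 11.04 to 12.18 in the 6 normal arrays and from 10.99 to 12.35 in the 18 graft arrays, against 8.68 to 10.39 in the leukocyte arrays (Cdh5 was not measured by a probe set of its own). The mean of 13 endothelial markers was lower in allografts of day 4 (11.66 to 12.004) than in normal DA hearts (12.13 to 12.22), without overlap. Of these 13 markers, 3 were called lower there. Allografts of day 2 (11.81 to 12.04) also lay below normal DA hearts, and those of day 3 (11.94 to 12.18) overlapped with them. Isografts overlapped with normal Lewis hearts on each day. Transcripts of other cells differed between the groups as well. Ptprc, which encodes CD45, ranged from 5.29 to 5.67 in the normal arrays, from 5.93 to 8.21 in isografts and from 7.80 to 9.50 in allografts, with 12.36 to 12.69 in leukocytes. The summed level of 10 pan-leukocyte markers, given as their mean log2 signal, ran from 6.52 to 7.02 in normal hearts, from 7.16 to 8.49 in isografts, from 8.15 to 9.15 in allografts and from 11.89 to 12.08 in leukocytes. Counted by day (2, 3 and 4), 1, 4 and 5 of these 10 markers were higher in isografts and 9, 8 and 9 in allografts. Of 12 macrophage markers, 5, 11 and 12 were higher in isografts and 12, 10 and 12 in allografts, and of 10 T cell markers 1, 1 and 2 in isografts and 3, 5 and 10 in allografts. Of 13 cardiomyocyte markers 4, 7 and 6 were lower in isografts, and in allografts 2 were lower on day 2, 1 was higher and 0 lower on day 3, and 3 were lower on day 4. The array's control probe sets for RNA quality, read as 3′ minus 5′ signal in log2, differed as well. For hexokinase they gave 0.72 to 1.01 in isografts of day 3 and 0.60 to 0.97 on day 4, against 1.10 to 1.31 in normal Lewis hearts. For GAPDH they gave -0.24 to -0.16 in isografts of day 2 and -0.29 to -0.21 on day 3, against -0.14 to -0.10 in normal Lewis hearts. In allografts of day 4 the GAPDH controls gave -0.16 to -0.10, against -0.31 to -0.20 in normal DA hearts. None of these hexokinase and GAPDH ranges overlapped with that of the normal hearts. For beta-actin the ranges of normal (0.79 to 1.41), isograft (0.77 to 1.33) and allograft arrays (0.74 to 1.40) overlapped. These lists and the hexokinase and GAPDH controls moved with the same contrasts as the genes described here, and their part in the results was not tested. In such bulk samples fewer cells of a type and less RNA per cell cannot be told apart.

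**Figure D1:**
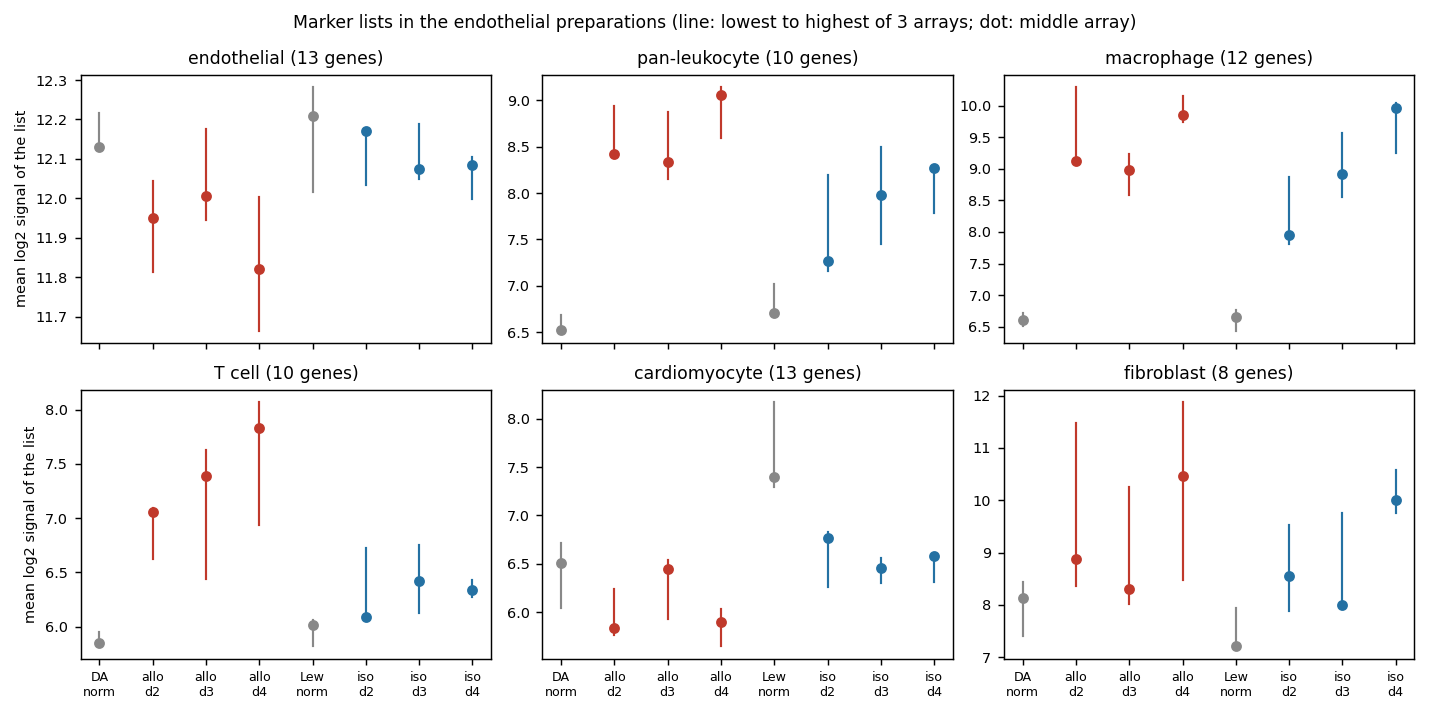
Mean log2 signal of 6 marker lists in the endothelial preparations, by group. Lines run from the lowest to the highest of 3 arrays and dots mark the middle array. The pan-leukocyte list reaches 9.15 in allografts of day 4 against at most 7.02 in normal hearts. The endothelial list lies at 11.66 to 12.004 in allografts of day 4, below normal DA (12.13 to 12.22) and normal Lewis hearts (12.02 to 12.28).

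Isografts were compared with normal Lewis endothelium, and allografts with normal DA endothelium, to follow what grafting into a matched and into a mismatched recipient does. The 3 days of a graft type share their normal hearts. Of the 9 genes, phosphoglycerate kinase (Pgk1) rose in both graft types on every day, enolase (Eno1) and Hif1a rose in both types on some days, and Slc2a1, Hk2 and Pfkp passed the test in allografts of day 4 alone. In isografts 1 of the 9 genes rose on day 2 (Pgk1), 3 on day 3 (Pgk1, Eno1 and Hif1a) and 2 on day 4 (Pgk1 and Eno1). Over all genes, 1.06%, 1.8% and 2.61% were called higher on these days. In allografts 3 rose on day 2 (Pgk1, Eno1 and Hif1a), 1 on day 3 (Pgk1) and 6 on day 4 (these 3 with Slc2a1, Hk2 and Pfkp), where 3.53%, 1.55% and 7.19% of all genes were called higher. None of the 9 fell in these 6 comparisons, in which a gene was called at an adjusted p under 0.05 (limma). The shares of all genes called lower were 0.422%, 0.732% and 0.556% in isografts and 2.45%, 0.724% and 4.26% in allografts. Their median difference was 0.31, 0.47 and 0.47 log2 in isografts and 0.31, 0.44 and 1.04 log2 in allografts, beside a median over all genes between -0.01 and 0.03. Pgk1 passed in all 6 comparisons, as did 0.626% of all genes. Hk1, Ldha and Pdk1 passed in none, as did 86.3% of all genes. In 3 members (Pgk1, Eno1 and Hif1a) each of the 18 graft arrays lay above each of the 6 normal arrays, an order found in 2.05% of all genes.

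**Figure D2:**
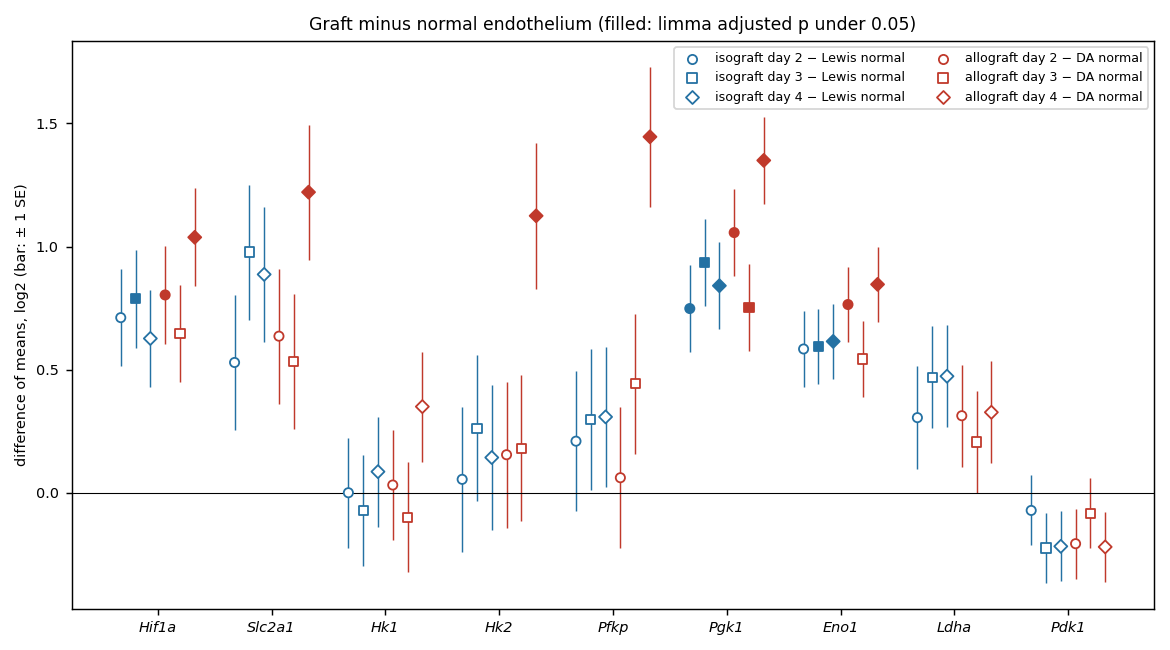
Difference of each graft group from normal endothelium of the same strain (log2, ± 1 SE) for the 9 measured genes, 3 isograft days and 3 allograft days each; filled symbols passed the test. Pgk1 is filled in all 6 comparisons, and the allograft of day 4 is the highest point of each of the 6 genes called there.

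Hif1a itself (chr6:98357788-98405068, RefSeq coordinates on GRCr8) had 11.04, 10.97 and 10.48 in normal DA hearts and 11.04, 10.68 and 10.79 in normal Lewis hearts. Isografts had 11.56, 11.74 and 11.33 on day 2, 11.87, 11.504 and 11.49 on day 3, and 11.88, 11.33 and 11.17 on day 4. Allografts had 11.87, 11.56 and 11.47 on day 2, 11.65, 11.37 and 11.42 on day 3, and 11.74, 11.64 and 12.22 on day 4. No graft array overlapped with a normal array, and the 6 graft groups overlapped with their neighbours in the order of means. Hif1a rose in isografts on day 3 by 0.79 (SE 0.20, adjusted p = 0.0375) and in allografts on day 2 by 0.80 (adjusted p = 0.0181) and on day 4 by 1.04, or 2.05-fold (adjusted p = 0.00159). On the other days it differed by 0.71 and 0.63 in isografts of days 2 and 4 (adjusted p = 0.0871 and 0.105) and by 0.65 in allografts of day 3 (adjusted p = 0.110). The call on day 4 of allografts held in each of 24 fits that left out 1 array, that on day 2 in 22, and that in isografts in 18. The day 2 call was lost without DA normal replicate 3 (0.63, adjusted p = 0.117) or without the first allograft array (0.69, adjusted p = 0.0730). The isograft call was lost without any 1 of the 3 Lewis normal arrays or of the 3 isograft arrays of day 3, with differences of 0.66 to 0.89 and adjusted p = 0.0559 to 0.161.

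Slc2a1 (chr5:138002522-138030742) encodes GLUT1, the glucose carrier of endothelium. It had 8.40, 8.17 and 8.17 in normal DA hearts, 8.84, 8.82 and 8.99 in allografts of day 2, 8.72, 8.32 and 9.30 on day 3 and 8.94, 9.29 and 10.18 on day 4. Normal Lewis hearts had 7.78, 7.88 and 7.70, and isografts had 7.96, 8.94 and 8.04 on day 2, 8.76, 8.85 and 8.69 on day 3 and 8.95, 8.58 and 8.49 on day 4. Every isograft array was above the Lewis arrays, and only on day 3 did an allograft array fall within the range of the DA arrays. Slc2a1 rose in allografts of day 4 by 1.22 (SE 0.27, 2.33-fold, adjusted p = 0.00596). In isografts it differed by 0.98 on day 3 and 0.89 on day 4, just outside the threshold (adjusted p = 0.0665 and 0.0935), and by 0.53 on day 2 (adjusted p = 0.559). The DA and Lewis normal arrays did not overlap for Slc2a1 (0.46 higher in DA), but the strain difference did not pass (adjusted p = 0.685), and neither did that of any of the 9 genes, with 1.01% of all genes called in either direction between the strains.

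Hexokinases put the first phosphate on glucose and hold it in the cell. Hk1 (chr20:30773222-30874814), the form of most tissues, ran from 9.83 to 10.61 in the 6 normal arrays and from 9.74 to 10.95 in the 18 graft arrays, which enclose them. It passed in no comparison, with differences between -0.10 and 0.35 (SE 0.22). Its 95% interval for allografts of day 4 ran from -0.12 to 0.82. Hk2 (chr4:116792258-116841275), the inducible form, lay at 4.76, 4.58 and 4.63 in normal DA hearts and at 4.59 to 4.96 in allografts of days 2 and 3. Hk2 was thus dim in these groups, under the medians of the endothelial arrays (6.51 to 6.59). On day 4 of allografts its arrays had 5.05, 5.37 and 6.93, so that 1 array stood well above its companions. Hk2 rose there by 1.12 (SE 0.30, 2.18-fold, adjusted p = 0.0161). Without the third allograft array the difference was 0.55 (adjusted p = 0.0571), and the call was also lost without DA normal replicate 2 (1.09, adjusted p = 0.0598) or replicate 3 (1.11, adjusted p = 0.0530). In isografts Hk2 had 4.46 to 5.09 against 4.52 to 4.68 in normal Lewis hearts, with differences of 0.05, 0.26 and 0.14.

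Pfkp (chr17:68639749-68704055) encodes the platelet-type subunit of phosphofructokinase, the enzyme of the committed step. Normal DA hearts had 8.61, 8.57 and 8.49, and allografts had 9.001, 8.31 and 8.55 on day 2, 8.95, 8.84 and 9.22 on day 3 and 9.21, 9.89 and 10.91 on day 4. The arrays of day 2 spread around the normal ones, and those of days 3 and 4 lay above them. Isografts had 8.35, 8.65 and 8.09, then 8.66, 8.33 and 8.36, then 8.82, 8.28 and 8.28, against 8.29, 8.25 and 7.91 in normal Lewis hearts, with overlap on days 2 and 4 and differences of 0.21, 0.30 and 0.31 that did not pass. Pfkp rose in allografts of day 4 by 1.45 (SE 0.29, 2.72-fold, adjusted p = 0.00208), a call that held in each of the 24 fits without 1 array, with differences between 0.99 and 1.84. From day 2 to day 4 of allografts it rose by 1.38 (adjusted p = 0.0310), the single member called in that comparison, in which 0.38% of all genes were called higher. That rise was lost without allograft day 4 replicate 3 (0.93, adjusted p = 0.180) or replicate 2 (1.44, adjusted p = 0.0918), and without allograft day 2 replicate 2 (1.23, adjusted p = 0.188) or replicate 3 (1.35, adjusted p = 0.109). No member was called between isografts of day 4 and day 2, and 0.0352% of all genes were.

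Pgk1 (chrX:75336988-75352962) makes the first ATP of glycolysis. Normal hearts had 11.09, 10.88 and 10.81 (DA) and 11.05, 10.90 and 10.82 (Lewis). Isografts had 11.40, 12.02 and 11.60 on day 2, 11.90, 11.92 and 11.76 on day 3 and 11.86, 11.58 and 11.85 on day 4. Allografts had 12.07, 11.67 and 12.21 on day 2, 11.83, 11.59 and 11.62 on day 3 and 11.96, 12.20 and 12.67 on day 4. The lowest graft array, from an isograft of day 2, was still above the highest normal array. Pgk1 rose by 0.75, 0.94 and 0.84 in isografts (SE 0.18, adjusted p = 0.0344, 0.00476 and 0.00879) and by 1.06, 0.75 and 1.35 in allografts (adjusted p = 0.000862, 0.0238 and 4.01e-05), the last being 2.55-fold. The calls of isografts on day 3 and of allografts on days 2 and 4 held in each of the 24 fits without 1 array. The calls of isografts on day 2 and of allografts on day 3 held in 19 each, with values down to 0.57 (adjusted p = 0.276, without isograft day 2 replicate 2) and 0.68 (adjusted p = 0.0904, without allograft day 3 replicate 1). The others that ended these calls were the 3 Lewis normal arrays and isograft replicate 3 for the former (adjusted p = 0.0597 to 0.134), and DA normal replicates 2 and 3 and allograft replicates 2 and 3 for the latter (adjusted p = 0.0573 to 0.117). The call of isografts on day 4 was lost only without isograft day 4 replicate 1 (0.79, adjusted p = 0.0503). A second probe set for Pgk1 gave 0.72, 0.95 and 0.93 in isografts and 1.07, 0.77 and 1.47 in allografts, and missed the threshold in isografts of day 2 (adjusted p = 0.175) and allografts of day 3 (adjusted p = 0.0983). The last of its 3 probe sets was dim in all groups (mean 3.36) and differed by at most 0.15. With the mean of all 3, Pgk1 no longer passed in isografts of day 2 (0.50, adjusted p = 0.135) and allografts of day 3 (0.53, adjusted p = 0.0819).

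Eno1 (chr5:166002867-166014252), the enolase of most tissues, makes phosphoenolpyruvate. Its normal arrays had 11.43, 11.21 and 11.04 (DA) and 11.31, 11.16 and 11.25 (Lewis). Isografts had 11.86, 11.99 and 11.62, then 11.92, 11.80 and 11.77, then 12.12, 11.70 and 11.74 on days 2, 3 and 4. Allografts had 12.05, 11.66 and 12.26, then 12.004, 11.68 and 11.63, then 11.999, 12.09 and 12.13. All graft arrays were above all normal arrays, while the graft groups overlapped with each other along the order of means. Eno1 rose in isografts on days 3 and 4 by 0.59 and 0.61 (SE 0.15, adjusted p = 0.0410 and 0.0276) and in allografts on days 2 and 4 by 0.76 and 0.85 (adjusted p = 0.00378 and 0.000937). Isografts of day 2 differed by 0.58 and allografts of day 3 by 0.54 (adjusted p = 0.0626 and 0.0740). Both allograft calls held in each of the 24 fits without 1 array, and the isograft calls in 13 (day 3) and 19 (day 4). Leaving out a Lewis normal array ended both isograft calls (adjusted p = 0.0577 to 0.161), as did leaving out any isograft array of day 3 for day 3 (0.106 to 0.130) and isograft replicate 1 or 3 for day 4 (0.169 and 0.0528). The 5 other arrays that ended the call of day 3 belonged to neither group and left the difference at 0.59 (adjusted p = 0.0501 to 0.0537).

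Ldha (chr1:106508092-106517512) encodes the lactate dehydrogenase subunit that turns pyruvate into lactate. It had 11.86, 11.47 and 12.01 in normal DA hearts and 11.81, 12.26 and 12.25 in allografts of day 4, and 11.57, 11.96 and 11.51 in normal Lewis hearts and 12.13, 12.23 and 12.10 in isografts of day 4. The isograft arrays of days 3 and 4 lay above the Lewis arrays, and those of the other graft groups overlapped with normal ones. No difference passed, at 0.31, 0.47 and 0.47 in isografts and 0.31, 0.21 and 0.33 in allografts (SE 0.21, adjusted p = 0.300 to 0.896). For isografts of day 4 the 95% interval of the difference ran from 0.04 to 0.91. Pdk1 (chr3:77113464-77144145), a kinase that shuts pyruvate out of the mitochondrial pathway, ran from 7.91 to 8.29 in normal and from 7.62 to 8.16 in graft arrays. Its means were lower in all 6 graft groups (-0.22 to -0.07, SE 0.14), but its second probe set, with a mean level of 7.56, gave differences from -0.15 to 0.21 (SE 0.25) that were above 0 in isografts of day 4 and allografts of days 3 and 4. None of these passed, and the 95% interval of the first probe set for allografts of day 4 ran from -0.52 to 0.08.

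**Figure D3:**
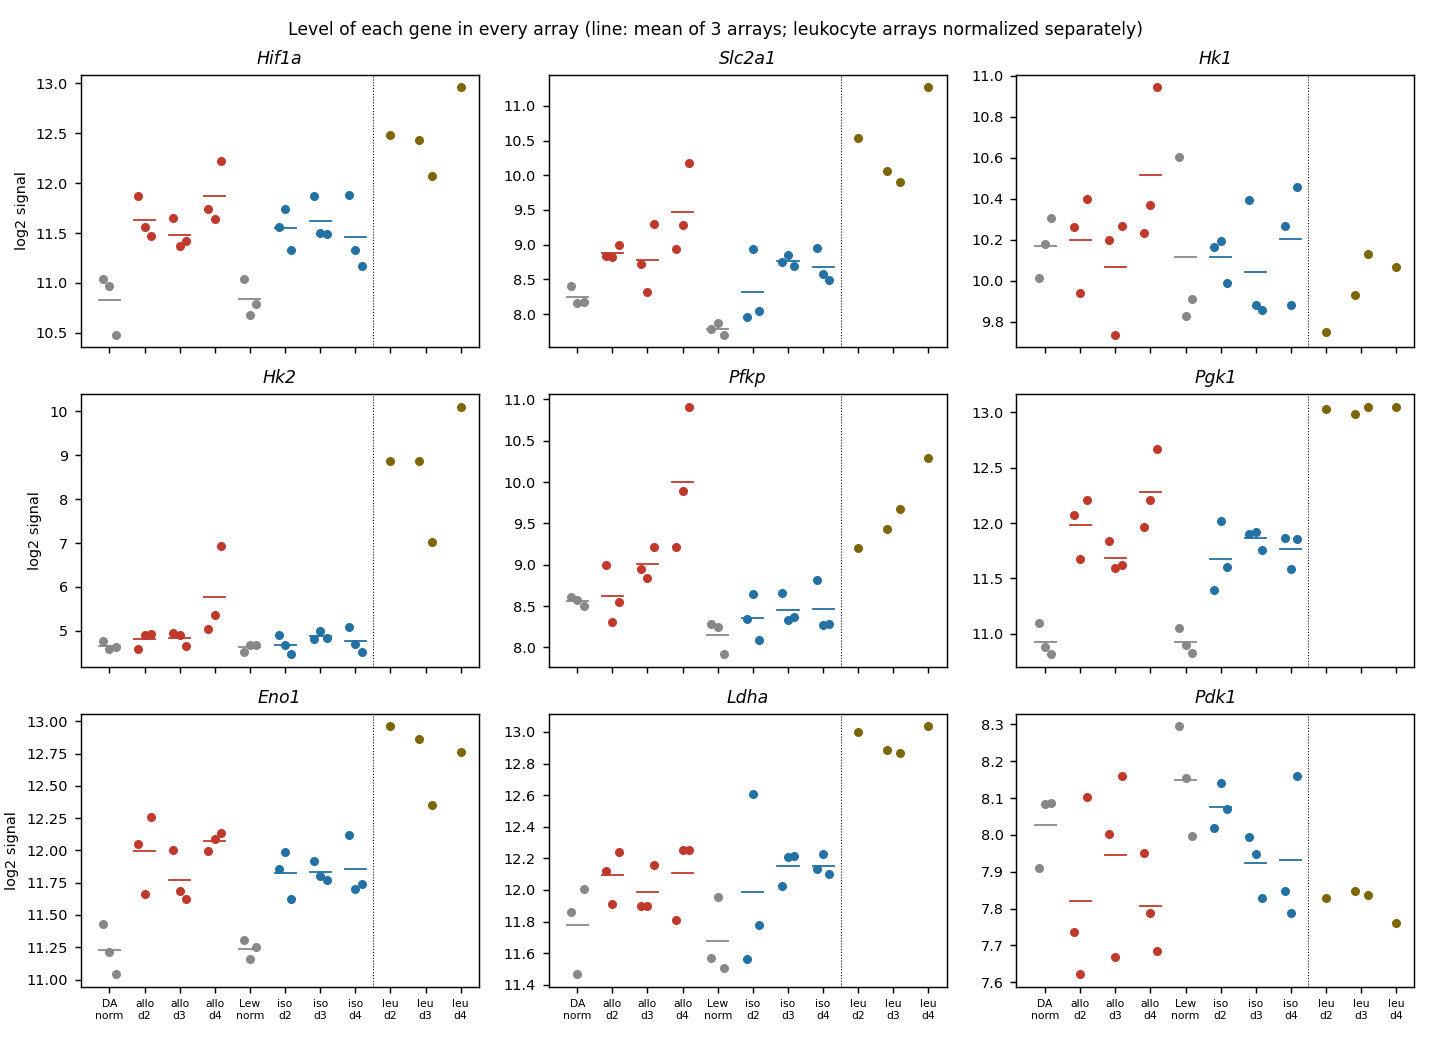
Level of the 9 genes in every array (log2 signal), by group, with the mean of 3 arrays as a line. The leukocyte arrays, right of the dotted line, had higher medians and may have been normalized separately. Pgk1, Eno1 and Hif1a separate all graft from all normal arrays, and Hk2, Pfkp and Slc2a1 each show 1 allograft array of day 4 above its companions (6.93, 10.91 and 10.18).

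The start sites of 4 members are shown because they contrast genes that rose in both graft types (Hif1a, Eno1), 1 called in allografts of day 4 alone (Pfkp) and 1 called nowhere (Ldha). Each line gives the 250 bases before a start site, 5′ to 3′ on the gene's strand (the plus strand in these 4), from RefSeq on GRCr8: chr6:98359648-98359897 for Hif1a, chr5:166002617-166002866 for the first of the start sites of Eno1, chr17:68639563-68639812 for Pfkp and chr1:106507842-106508091 for Ldha. The window of Hif1a lies wholly inside the gene coordinates given above, so it precedes an internal start site. The window of Pfkp ends inside its gene coordinates, and those of Eno1 and Ldha end just before theirs. Capitals mark ACGTG and GCGTG, the core letters of the HIF response element, on either strand (CACGT and CACGC in print when on the other strand). CACGTG, also known as an E-box, reads ACGTG on both strands and counts as 2 overlapping matches.
Hif1a: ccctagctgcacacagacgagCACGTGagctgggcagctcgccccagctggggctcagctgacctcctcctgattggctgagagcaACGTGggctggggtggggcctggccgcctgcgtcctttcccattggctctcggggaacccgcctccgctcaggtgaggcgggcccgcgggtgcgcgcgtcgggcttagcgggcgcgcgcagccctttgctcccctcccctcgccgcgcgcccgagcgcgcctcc
Eno1: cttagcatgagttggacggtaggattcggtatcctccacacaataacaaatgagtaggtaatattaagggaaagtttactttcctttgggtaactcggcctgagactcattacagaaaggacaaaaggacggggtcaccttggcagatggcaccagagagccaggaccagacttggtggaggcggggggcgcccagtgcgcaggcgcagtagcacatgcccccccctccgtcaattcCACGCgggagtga
Pfkp: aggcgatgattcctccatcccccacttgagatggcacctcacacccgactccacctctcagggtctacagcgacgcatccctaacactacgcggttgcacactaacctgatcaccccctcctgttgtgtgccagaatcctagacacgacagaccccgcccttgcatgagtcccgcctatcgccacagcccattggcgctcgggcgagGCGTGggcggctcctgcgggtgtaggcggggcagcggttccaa
Ldha: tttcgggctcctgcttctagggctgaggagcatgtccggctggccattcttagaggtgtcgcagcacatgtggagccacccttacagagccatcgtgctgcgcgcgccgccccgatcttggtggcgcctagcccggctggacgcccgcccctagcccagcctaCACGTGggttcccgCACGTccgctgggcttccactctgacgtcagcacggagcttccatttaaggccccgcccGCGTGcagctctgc
In these windows ACGTG was found 3 times for Hif1a and 3 times for Ldha, which has 1 GCGTG besides, while Eno1 and Pfkp have 1 GCGTG each. Slc2a1 holds 1 ACGTG and 3 GCGTG, and Pdk1 holds 2 GCGTG. Hk2 and Pkm hold neither, and Hk1 holds 1 ACGTG at its second start site only. Of all 33469 start sites listed, 16.6% hold ACGTG, 25.9% GCGTG and 36.7% either in this window, and 1.26% hold ACGTG at least 3 times. The matches are a description of letters, and their part in the levels of the members was not tested. Pgk1 has no start site in the table used.

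Whether the changes of allografts differed from those of isografts was tested by the difference of both changes on each day. None of the 9 genes was called on day 2, 3 or 4 or over the mean of the days (lowest adjusted p = 1.0, 0.999, 0.710 and 1.0), and over all genes 0.0%, 0.0%, 0.00703% and 0.00703% were called. The largest differences of changes among the 9 were on day 4, and neither passed. The change was larger in allografts by 1.14 for Pfkp (95% interval 0.30 to 1.98, adjusted p = 0.710) and by 0.98 for Hk2 (0.11 to 1.85, adjusted p = 0.829). For Pfkp the difference became 1.53 (adjusted p = 0.0475) without allograft day 4 replicate 1 and 0.68 without replicate 3. For Hk2 it became 0.41 without replicate 3. For Pgk1 the interval ran from -0.01 to 1.03 on day 4, for Slc2a1 from -0.47 to 1.14, for Hif1a from -0.17 to 1.00 and for Eno1 from -0.22 to 0.68. A count of 6 members called in allografts and 2 in isografts on day 4 is thus not by itself a difference between the graft types.

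The third allograft array of day 4 held the highest of the 24 endothelial values in 6 of the 9 members, an extreme seen in 15.6% of all genes. The same array had the highest mean of the pan-leukocyte markers (9.15) and of the T cell markers (8.07), and the lowest mean of the endothelial (11.66) and cardiomyocyte (5.64) markers among the 24. Without it, the difference of allografts of day 4 from normal DA hearts was 1.15 for Pgk1, 0.82 for Eno1, 0.86 for Hif1a and 0.99 for Pfkp, with adjusted p = 0.000355, 0.00597, 0.0154 and 0.0116. Slc2a1 then stood at 0.86 (adjusted p = 0.0497), and Hk2 no longer passed. The part of these markers in the values of the array was not tested. The fit uses 1 spread per gene for all groups, but Hk2, Pfkp and Slc2a1 spread more in allografts of day 4. Their standard deviations were 1.01, 0.86 and 0.64 there, against 0.09, 0.06 and 0.13 in normal DA hearts. The SE, intervals and p-values given for these 3 genes on that day may therefore be too small.

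Leukocytes of the allografts carried several of these transcripts at a higher level than the endothelial preparations. Their array medians were higher than those of the others, and the arrays may have been normalized apart. The median difference over all genes (0.33 log2) was therefore removed, and no test was made. Hk2 had 8.87 on day 2, 8.86 and 7.01 on day 3 and 10.10 on day 4 as deposited, beside 4.59 to 6.93 in the 9 allograft endothelial arrays. After removing the median difference its mean was 3.24 log2 higher in leukocytes (9.45-fold), with 3 of the 4 leukocyte arrays above all 9 allograft arrays. Slc2a1 was 1.07 higher (2.11-fold, 2 of 4 arrays above), and Pgk1, Ldha, Hif1a and Eno1 were 0.72, 0.56, 0.50 and 0.46 higher. For Ldha all 4 leukocyte arrays were above. Pfkp differed by 0.11, with 0 of 4 arrays above, and Hk1 and Pdk1 were lower, at -0.62 and -0.37. None of the 9 differed by 2-fold or more with no overlap, while 8.61% of all genes did so on the higher and 8.64% on the lower side. As deposited, with the median difference left in, Hk2 and Pgk1 did so (3.57 and 1.05 higher). The share of all genes that did so on that scale was not counted, so this is not read as a trait of the members. The leukocyte arrays of day 3 had endothelial marker means of 9.74 to 10.51, against 8.44 on day 2 and 8.68 on day 4. Their cardiomyocyte means were 7.33 to 8.025, against 6.26 and 6.155. The part of these transcripts in the overlap was not tested.

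**Figure D4:**
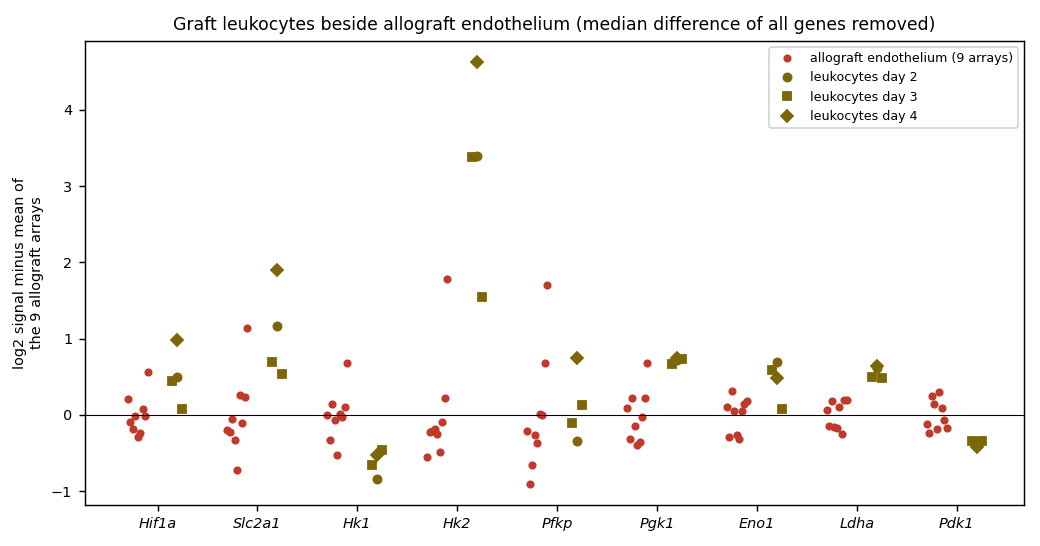
Levels of the 9 genes in the 9 allograft endothelial arrays and the 4 leukocyte arrays, as log2 signal minus the mean of the allograft arrays. The median difference over all genes (0.33 log2) was removed from the leukocyte arrays. Hk2 has the widest gap, a mean difference of 3.24, and the leukocyte arrays of Pfkp (mean difference 0.11) lie among the allograft arrays.

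Other genes of the same pathways were read from 4 lists. Of 20 other glycolysis genes, which include isoenzymes and lactate carriers, 0, 2 and 1 rose in isografts over the days in order and 2, 1 and 5 in allografts, and 1 fell (Pfkm in allografts of day 4). Their medians lay between -0.01 and 0.28, and 14 of the 20 passed in no comparison, beside 86.3% of all genes. Pgam1, the phosphoglycerate mutase between Pgk1 and Eno1 in the pathway, rose in isografts by 0.60 and 0.58 on days 3 and 4 (SE 0.11, adjusted p = 0.00517 and 0.00499) and in allografts by 0.51 and 0.61 on days 2 and 4 (adjusted p = 0.00941 and 0.00134). Its 6 normal arrays ran from 11.33 to 11.51 and its 18 graft arrays from 11.66 to 12.25, without overlap. Leukocytes had 13.13 on day 2, a mean of 12.999 on day 3 and 13.10 on day 4 for Pgam1, as deposited. Slc16a3, the lactate exporter MCT4, rose by 1.12 in isografts of day 3 (SE 0.28, adjusted p = 0.0370, held in 19 of 24 fits without 1 array) and by 1.49 and 1.62 in allografts of days 2 and 4 (adjusted p = 0.00241 and 0.000675). Its leukocyte arrays had 10.51 to 11.10, against 7.47 to 8.54 in allografts and 6.48 to 6.76 in normal DA hearts.

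Pfkfb3 encodes the enzyme that makes fructose 2,6-bisphosphate, the activator of phosphofructokinase, and is a driver of glycolysis in endothelium. It had 10.25, 10.04 and 10.16 in normal DA hearts, 10.67, 10.51 and 10.33 in allografts of day 2, 11.61, 12.04 and 11.90 on day 3 and 11.61, 12.11 and 12.75 on day 4. The arrays of days 3 and 4 were above all others of the 24, and isografts had 9.39 to 10.37 against 9.19 to 10.34 in normal Lewis hearts. Pfkfb3 rose in allografts by 1.70 on day 3 and 2.00 on day 4 (SE 0.26, adjusted p = 0.000706 and 4.19e-05), and by 1.65 from day 2 to day 4. These calls held in each of the 24 fits without 1 array. The difference of changes between allografts and isografts on day 4 was 1.72, the lowest adjusted p among the 72 pathway genes at 0.250, and did not pass. Leukocyte arrays had 10.85 to 11.68 for Pfkfb3 as deposited. Eno2 and Eno3 rose by 0.64 and 0.66 in allografts of day 4 (adjusted p = 0.0345 and 0.0384) and Pfkm, the muscle phosphofructokinase, fell by 0.77 (adjusted p = 0.0463). The calls of Eno2 and Eno3 held in 19 of 24 fits without 1 array (without the third allograft array of day 4, 0.52 and 0.57 with adjusted p = 0.182 and 0.167), and that of Pfkm held in 8, with differences from -1.05 to -0.35. With quantile normalization Eno2 and Eno3 no longer passed (0.62 and 0.54, adjusted p = 0.0608 and 0.0798), nor did Pfkm with the mean of its probe sets (-0.57, adjusted p = 0.0564).

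Of 11 genes of pyruvate entry, which hold the pyruvate dehydrogenase complex, its kinases and phosphatases and the pyruvate carrier, 0 rose, and 1 fell in a single comparison, the phosphatase Pdp2 in allografts of day 2 (-0.67, SE 0.17, adjusted p = 0.0230), where 2.45% of all genes were called lower. The other 10 passed in no comparison, beside the 86.3% of all genes that did not. Of 11 genes of the HIF machinery, 0 rose and 10 passed in no comparison, a share near the 86.3% of all genes. The prolyl hydroxylase Egln1, which marks HIF alpha subunits for degradation, fell by 0.78 in isografts of day 3 (SE 0.20, adjusted p = 0.0403). It fell by 0.63 in allografts of day 4 (adjusted p = 0.0450). Over all genes, 0.732% and 4.26% were called lower in these comparisons. The Egln1 calls held in 18 and 10 of the 24 fits without 1 array, and in allografts the difference was -0.51 (adjusted p = 0.221) without the third array of day 4. With the mean of its probe sets the isograft difference was -0.41 and no longer passed (adjusted p = 0.0712). Epas1, which encodes HIF-2 alpha, differed by -0.29 to -0.02, Vhl by 0.11 to 0.54 and Egln3 by -0.54 to 0.70, none of which passed.

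Of 21 other hypoxia targets, 1, 2 and 2 rose in isografts and 2, 2 and 2 in allografts, and 18 of them passed in no comparison, a share near the 86.3% of all genes. Angptl4 and Hmox1 made up these counts. Angptl4, an inhibitor of lipoprotein lipase, rose by 3.41, 2.14 and 2.36 in isografts (SE 0.45, adjusted p = 0.000167, 0.0100 and 0.00359) and by 4.40, 3.31 and 4.18 in allografts, and each call held in the 24 fits without 1 array. Its normal arrays had 6.41 to 6.91 and its graft arrays 8.84 to 12.06, far apart. Leukocytes had 10.70 on day 2, a mean of 9.24 on day 3 and 8.92 on day 4 for Angptl4, as deposited. Hmox1, which degrades heme, rose in isografts by 1.54 and 2.56 on days 3 and 4 and in allografts by 2.21, 1.54 and 2.47 (SE 0.40, adjusted p = 0.000314 to 0.0435), and had 12.78 to 13.27 in leukocytes against 7.94 to 8.64 in normal hearts. The calls of Hmox1 on day 3 held in 16 fits without 1 array in isografts and in 10 in allografts. Mxi1 fell by 1.15 in allografts of day 4 (adjusted p = 0.00617), with a difference of -0.72 (adjusted p = 0.0375) without the third array of that day. Lox differed by 2.48 there but had an SE of 0.81 and did not pass (adjusted p = 0.0519), though it did with the mean of its probe sets (2.67, adjusted p = 0.0445) and with the trended prior (adjusted p = 0.0485). Plod2 and Tfrc did not pass (0.97 and 0.46).

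**Figure D5:**
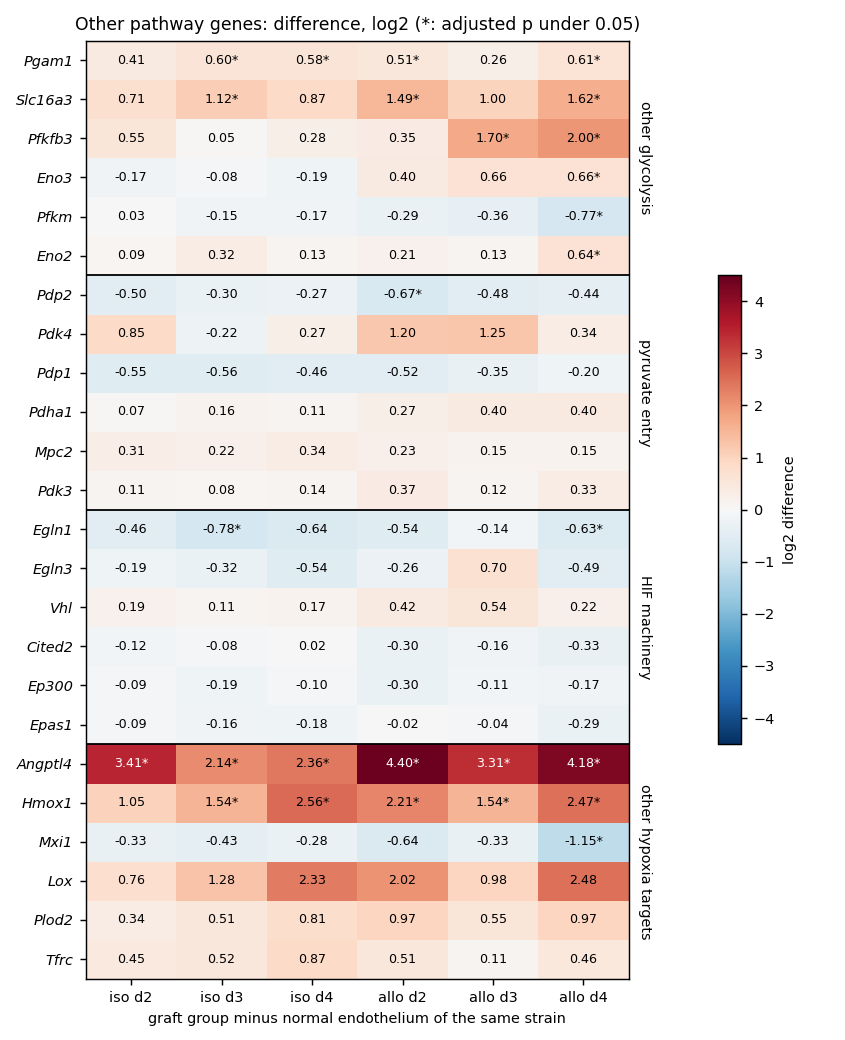
Differences of graft groups from normal endothelium (log2) for 6 genes of each of the 4 pathway lists, with an asterisk where the adjusted p was under 0.05. The asterisks gather in Angptl4 (6 of 6 comparisons), Hmox1 (5) and Pgam1 (4), while Pdp2 has 1 and Egln1 has 2 among the lists of pyruvate entry and HIF machinery.

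Across the 24 endothelial arrays the members fell into patterns that can be described by their correlations, which share the same groups and normal hearts. Pgk1 and Eno1 had r = 0.932 over all arrays and 0.678 after group means were removed, Hif1a and Eno1 0.905 and 0.642, and Hk2 and Pfkp 0.838 and 0.704. Every r given for Hk2 or Pfkp includes the third allograft array of day 4, the highest of the 24 in both (6.93 and 10.91). How far these r rest on that array was not tested. For Pdk1 r lay between -0.502 (Hk2) and 0.188 (Hk1) over all arrays, but between -0.36 (Hk2) and 0.54 (Hk1) after group means were removed, where it was above 0 with Hk1, Pgk1, Eno1, Ldha and Slc2a1. The genes most like Pgk1 among all 14217 were Nipsnap3b (r = 0.972), Col18a1 (0.958) and Pgam1 (0.957), the last being its neighbour in glycolysis. Those most like Hif1a were Adss2 (0.925), Nipsnap3b (0.912) and Eno1 (0.905), and those most like Eno1 were Sfxn1 (0.937), Myof (0.935) and Nipsnap3b (0.934). Slc2a1 was most like Ctps1 (0.957), a CTP synthase, and the translation initiation genes Eif2s1 (0.933) and Eif1a (0.923). Hk2 was most like the tRNA synthetase genes Vars1 (0.931) and Rars1 (0.928) and Wdr91 (0.919), and Pfkp like Rmdn3 (0.947), Ghitm (0.939) and Tmem106a (0.937). Ldha was most like Icam1 (0.897), the leukocyte adhesion receptor, Hk1 like Unc45a (0.898) and Pdk1 like Dstyk (0.855).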

How the data were processed

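The deposited values were log2 signals per probe set, which the authors computed by RMA with affy, per the submitters' processing notes, which the sources used here give without versions. Array medians were 6.51 to 6.59 in the endothelial and 6.83 to 6.88 in the leukocyte arrays, so the latter were only described. Of 31099 probe sets, 20826 matched a single gene and 20758 of these had an entry in the RefSeq list (GRCr8), while 57 controls, 436 that match several genes and 9780 without a listed gene were left out. Of several probe sets of a gene, the one with the highest endothelial mean was kept, which gave 14217 genes without a filter on dim ones.

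limma 3.58.1 (R 4.3.3, lmFit and eBayes) was fitted with a mean for each group of the 24 arrays. The fit left 16 residual degrees of freedom, to which the prior added 4.06. In 13 comparisons p-values were adjusted over all genes (Benjamini-Hochberg), and genes under 0.05 were called. The median SE was 0.165 log2, and the number of arrays limits the precision. On simulated data for allografts of day 4, the test recovered 87% of 100 genes shifted by 1 log2 and 97% of 100 shifted by 2. There were 7 false calls among the genes left unshifted. The simulated noise was independent, with 1 spread per gene for all groups. Real spreads can differ by group (Hk2, standard deviation 1.01 in allografts of day 4 and 0.09 in normal DA hearts), so these rates may not hold there. Named were all members, up to 6 genes of each pathway list (called in most of the 6 graft comparisons, then by mean size), defining markers, and the 3 genes of highest Pearson r per member. Members and lists were chosen with earlier results of these data known. Alternatives were the replicate number as a block, a trended prior, genes above the median level only, the mean of a gene's probe sets, quantile normalization and leaving out each array.

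Results of the other marker lists were 4 of 7 neutrophil markers higher in allografts of day 2, 4 of 8 fibroblast markers higher on day 4 of each graft type and 1 on day 2 of allografts, 0 of 4 erythroid markers called, 1 of 13 proliferation markers higher in allografts of day 2, and 1 higher and 1 lower of 13 endothelial markers in allografts of day 2 with 3 lower on day 4.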

Additional observations from a re-analysis of the deposited data

How the results depend on the processing

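The direction of every called member difference held under each alternative. Leaving out each of the 24 arrays gave 0 to 2 members called in isografts of day 2, 1 to 4 on day 3 and 0 to 3 on day 4, 2 to 3 in allografts of day 2, 0 to 2 on day 3 and 5 to 6 on day 4, 0 to 2 from day 2 to day 4 of allografts, 0 to 1 in the difference of changes of day 4, and 0 in the other comparisons. With genes above the median level only, 2 members were called in isografts of day 2 in place of 1 (Hk2 lies under that level and was not tested), and with the mean of a gene's probe sets 0 in isografts of day 2 and 0 in allografts of day 3. Slc2a1 passed in isografts of day 3 with genes above the median level only (adjusted p = 0.0487) and with quantile normalization (0.0483). Leukocyte levels as deposited put 2 members past 2-fold with no overlap in place of 0, and all 28 arrays quantile normalized together put 0. The share of all genes was not counted for either setting. The trended prior changed no call of a member. Over all genes, the filter at the median gave 85 calls in place of 144 for strain, 214 in place of 324 in allografts of day 3, 2 in place of 5 from day 2 to day 4 of isografts, and 0 in place of 1 in the differences of changes of day 4 and of the mean. Leaving out 1 array gave 862 to 2606 calls over all genes in allografts of day 4 (1627 with all) and 15 to 506 from day 2 to day 4 of allografts (54 with all). The cause was not tested.

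With the replicate number as a block, 3 members were called in isografts of day 2 (Pgk1, Eno1 and Hif1a), 2 in allografts of day 3 (Pgk1 and Eno1) and 0 from day 2 to day 4 of allografts (Pfkp, adjusted p = 0.0503). Samples of the same number had a median correlation of deviations from the group mean of 0.099 (from -0.347 to 0.583, 42 of 84 pairs over 0.1). In 168 pairs of different numbers the median was -0.045, with 39 over 0.1. The main fit left the numbers out, and whether they mark samples handled together was not tested. The 3′ minus 5′ signal of beta-actin did go with the number, from 0.74 to 0.98 log2 in the 8 endothelial arrays numbered 1, 0.79 to 1.33 in those numbered 2 and 0.97 to 1.41 in those numbered 3 (medians 0.809, 1.18 and 1.23).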

Other observations

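Between normal hearts of the 2 strains, 2 pathway genes outside the naming rule were called, and they are named after their values were seen. P4ha1, a collagen prolyl hydroxylase, was higher in DA than in Lewis endothelium by 1.57 log2 (limma, adjusted p = 0.00817). Ldhb, the lactate dehydrogenase subunit abundant in heart muscle, was lower in DA by 0.77 log2 (a difference of -0.77, adjusted p = 0.0499). In the same comparison 7 of 13 cardiomyocyte markers were lower in DA, with Tnnt2 at -2.27 log2, and their part in these values was not tested. Neither gene passed in a graft comparison.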
